A study of Mus musculus with 6 samples.

Results

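The tripartite motif (TRIM) proteins are a family of ubiquitin E3 ligases, named for a RING finger, B-box zinc fingers, and a coiled coil that stand in this order at the start of most members. The domain that follows the coiled coil differs between members and sets what each of them binds. Many TRIM proteins act in the defense against viruses and are themselves induced by interferons, whereas others bind chromatin, microtubules, or RNA, and a few are used in the maturation of red blood cells. Here the family was taken as every gene whose symbol is Trim followed by a number and at most 1 letter, and whose normalized count averaged 10 or more over the 6 libraries. Of 68 such symbols, 58 met this minimum, out of 26264 genes in the table, of which 17404 met it. The sequence data came from hematopoietic stem cells (HSCs) of bone marrow, from 3 wild-type (WT) mice and 3 mice without functional interferon regulatory factor 1 (*Irf1-/-*), with 1 library from each mouse. All mice were untreated, female, and 8 weeks old. *Irf1-/-* mice carried the germline allele B6.129S2-*Irf1 tm1Mak*/J and WT mice were C57Bl/6, and HSCs were sorted as Lineage-Sca1+cKit+ cells with CD150 and without CD48. The comparison asks which transcripts change when the transcription factor IRF1 is lost, and fold changes are given as *Irf1-/-* over WT.

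Values of each genotype are given in the order of replicates 2, 3, and 4. *Irf1* itself had normalized counts of 9267, 9524, and 9287 in *Irf1-/-* libraries and 10122, 11119.6, and 12058 in WT libraries. All 3 *Irf1-/-* libraries were lower, but the mean was still 84.3% of WT (limma, adjusted *P* = 0.17), and a count over the whole gene cannot tell reads of a remaining part of the transcript from those of the deleted part. Of 10 transcripts that mark HSCs, all were tested, with *Kit* the most abundant (77902, 88715, and 79909 normalized counts in *Irf1-/-* libraries and 83185, 84044, and 80517 in WT libraries). *Procr* and *Fgd5* were higher in *Irf1-/-* HSCs (log2 fold changes of 0.52 and 0.83; limma, adjusted *P* = 0.0112 and 9.13e-05). *Ly6a* was lower (−0.43; adjusted *P* = 0.0245), and the other 7 did not pass limma's threshold. Thus 20% of this list passed as higher, against 1.73% of tested genes, and 10% as lower, against 1.49%. An unadjusted *P* under 0.05 was found for 7 (against 16.5%), and 3 passed with edgeR and 4 with DESeq2. Without overlap, 5 were higher (against 10.6%) and 1 was lower (against 9.27%). Of the genes kept low by the HSC sort or phenotype, *Flt3*, which marks more differentiated progenitors, was higher in *Irf1-/-* HSCs (3442, 4476, and 3460.0 normalized counts in *Irf1-/-* libraries and 2656, 1729.9, and 2865 in WT libraries; log2 fold change of 0.67; limma, adjusted *P* = 0.0407), and *Cd48* had a log2 fold change of 0.11. The part of *Flt3*-bearing cells in the TRIM results was not tested. In 6 lists of markers of B cells, T cells, granulocytes and monocytes, macrophages, dendritic cells, and stroma, 22 of 26 genes were tested. In limma 0 passed (against 1.73% of tested genes higher and 1.49% lower) and 0 had an unadjusted *P* under 0.05 (against 16.5%). With edgeR 0 passed, and 0 passed with DESeq2, which gave an adjusted *P* for 10. The 26 genes summed to 32845, 37897, and 34608 normalized counts in *Irf1-/-* libraries and 28658, 36381, and 33828 in WT libraries, with *Lyz2* the most abundant, none at 0 in every library, and *Cd3e*, *Cd8a*, *Pax5*, and *Ly6g* under the minimum. WT replicate 4 stood apart in the neutrophil gene *S100a8* (22.4, 47.5, and 110.0 in *Irf1-/-* libraries and 46.9, 13.5, and 1033 in WT libraries). It was also the highest library for *Ly6g* (46.3), *Siglech* (69.9), *Itgax* (49.5), and *Cd3d* (52.7), but not for *Lyz2*, *Itgam*, or *Elane*. The part of this library in the TRIM results was not tested. Without it 7 members had an adjusted *P* under 0.05 in limma, against 5 with it, while the genes that passed in the whole table went from 561 to 992.

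TRIM transcripts in HSCs covered a wide range of levels. The mean normalized count of the 58 members ran from 10.8 to 22429 with a median of 709.8, where the median of all tested genes was 875. There were 16 members under 100 normalized counts. Levels of different genes were compared per kilobase of exon, which 57 of the members had. The 5 highest were *Trim47* with 8201 normalized counts per kilobase, *Trim8* with 3385, *Trim28* with 3075, *Trim27* with 2451, and *Trim35* with 2333. *Trim47* stood above 98.6% of the tested genes on this scale and *Trim35* above 89.3%.

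Between the genotypes, few TRIM transcripts passed the test. A gene was called when its adjusted *P* in limma was under 0.05 and its log2 fold change was above 0.58 in either direction, and 2 of the 58 members were called (3.45%), where the share over all tested genes was 1.91%. *Trim62* was the 1 member called higher in *Irf1-/-* HSCs, against 0.96% of all tested genes, and *Trim58* was the 1 member called lower, against 0.954%. Without a threshold on the fold change, 4 members were higher with an adjusted *P* under 0.05 in limma (*Trim47*, *Trim62*, *Trim6*, and *Trim25*), against 1.73% of tested genes, and 1 was lower (*Trim58*), against 1.49%. In 13 members all 3 *Irf1-/-* libraries lay above all 3 WT libraries (22.4%, against 10.6% of tested genes), and in 4 members they lay below (6.90%, against 9.27%). The median log2 fold change over the members was 0.14, beside 0.00 over all tested genes, and 34 members (58.6%) had a positive value, beside 49.6% of tested genes. This median rested on WT replicate 3, without which it was 0.01 and 30 members were positive.

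**Figure D1:**
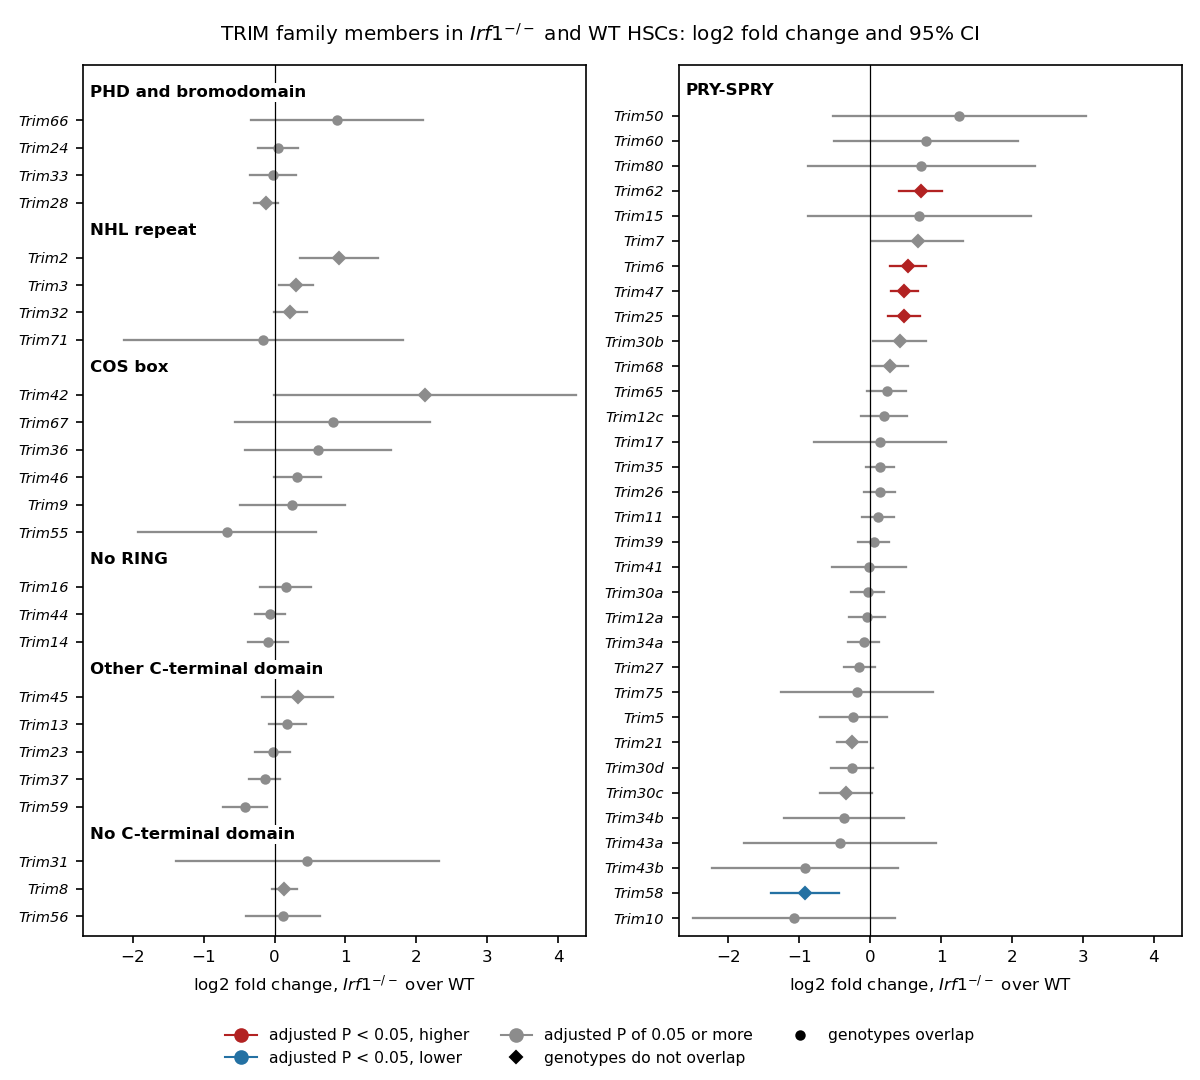
Log2 fold change (*Irf1-/-* over WT, x axis) of the 58 TRIM members with its 95% confidence interval from limma, grouped by domain class and ordered by fold change. Diamonds mark the 17 members whose genotypes did not overlap, and color marks the 5 members with an adjusted *P* under 0.05, of which 4 were higher and *Trim58* was lower.

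As a share of all reads on genes, the 58 members together took 0.306%, 0.315%, and 0.319% in *Irf1-/-* libraries and 0.288%, 0.287%, and 0.287% in WT libraries. On this scale every *Irf1-/-* library was above every WT library. In normalized counts, the scale of the other sums, the members summed to 140871, 155966, and 149572 in *Irf1-/-* libraries and 141485, 146870.0, and 133709 in WT libraries, and the genotypes overlapped. *Trim47* made up 16.7%, 17.3%, and 18.8% of the TRIM normalized counts in *Irf1-/-* HSCs and 12.9%, 13.1%, and 13.9% in WT HSCs. Without *Trim47* the share of reads was 0.255%, 0.261%, and 0.259% in *Irf1-/-* libraries and 0.251%, 0.250%, and 0.247% in WT libraries, so most of the gap in the share of reads lay in this gene.

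*Trim47* encodes a RING ligase with a C-terminal PRY-SPRY domain, a fold with which many members bind their substrates. It had normalized counts of 23476, 27019.7, and 28068 in *Irf1-/-* libraries and 18260.4, 19181, and 18566 in WT libraries. The WT libraries lay close together, and all 3 *Irf1-/-* libraries were above them. The *Irf1-/-* mean was 140.3% of WT, with a log2 fold change of 0.48 ± 0.09 (SE; limma, adjusted *P* = 0.0101).

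*Trim62*, another PRY-SPRY ligase, with a known part in epithelial cell polarity, was counted at 1825, 2337, and 2022 in *Irf1-/-* libraries and 1459.8, 1314, and 1021 in WT libraries. The genotypes did not overlap, and WT replicate 4 was the lowest library. The *Irf1-/-* mean was 163% of WT, and the log2 fold change of 0.71 ± 0.14 (SE; limma, adjusted *P* = 0.0138) made it the 1 member called higher.

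*Trim25* encodes the ligase that adds ubiquitin to the viral RNA sensor RIG-I. Its normalized counts were 5307, 4665, and 5583 in *Irf1-/-* HSCs and 3379.7, 3586, and 4248 in WT HSCs. *Irf1-/-* replicate 3 was the lowest of its genotype and WT replicate 4 the highest of the other, and the genotypes still did not overlap. *Trim25* had a log2 fold change of 0.47 ± 0.11 (SE; limma, adjusted *P* = 0.0272), which was under the fold change threshold.

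*Trim6* makes free ubiquitin chains that activate the kinase IKKε in the interferon response. It was counted at 1323, 1231, and 1219 in *Irf1-/-* libraries and 915, 829, and 852 in WT libraries, with little spread within each genotype and no overlap. The log2 fold change of 0.54 ± 0.12 (SE; limma, adjusted *P* = 0.0245) was also under the threshold on size.

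With 1 library left out, these members kept log2 fold changes of 0.43 to 0.56 (*Trim47*), 0.57 to 0.82 (*Trim62*), 0.50 to 0.58 (*Trim6*), and 0.41 to 0.57 (*Trim25*), whereas the adjusted *P* of limma passed in some of these fits and not in others. *Trim47* had an adjusted *P* above 0.05 in limma without *Irf1-/-* replicate 4 (0.0896) or WT replicate 2 (0.0582), and over all 16 other fits its adjusted *P* was 1.31e-05 to 0.204. *Trim62* was above 0.05 without *Irf1-/-* replicate 3 (0.0549) and was under the fold change threshold without WT replicate 4 (log2 fold change of 0.57), with adjusted *P* of 9.09e-05 to 0.252 over the 16 fits by limma, edgeR, and DESeq2. *Trim6* was above 0.05 in limma without *Irf1-/-* replicate 2 (0.103) or 4 (0.0867) and without WT replicate 2 (0.0558) or 3 (0.0932). *Trim25* was above 0.05 without the same libraries, with an adjusted *P* in limma of 0.109 and 0.141 without *Irf1-/-* replicates 2 and 4 and 0.127 and 0.0946 without WT replicates 2 and 3. Over all 16 fits the adjusted *P* of limma, edgeR, or DESeq2 was 5.22e-04 to 0.135 for *Trim6* and 0.00142 to 0.289 for *Trim25*. The highest value of each range came from limma without its intensity trend, in which 0 members passed (11 with an unadjusted *P* under 0.05), whereas 5 passed with edgeR and 6 with DESeq2. In all of these fits the 4 members had positive log2 fold changes.

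**Figure D2:**
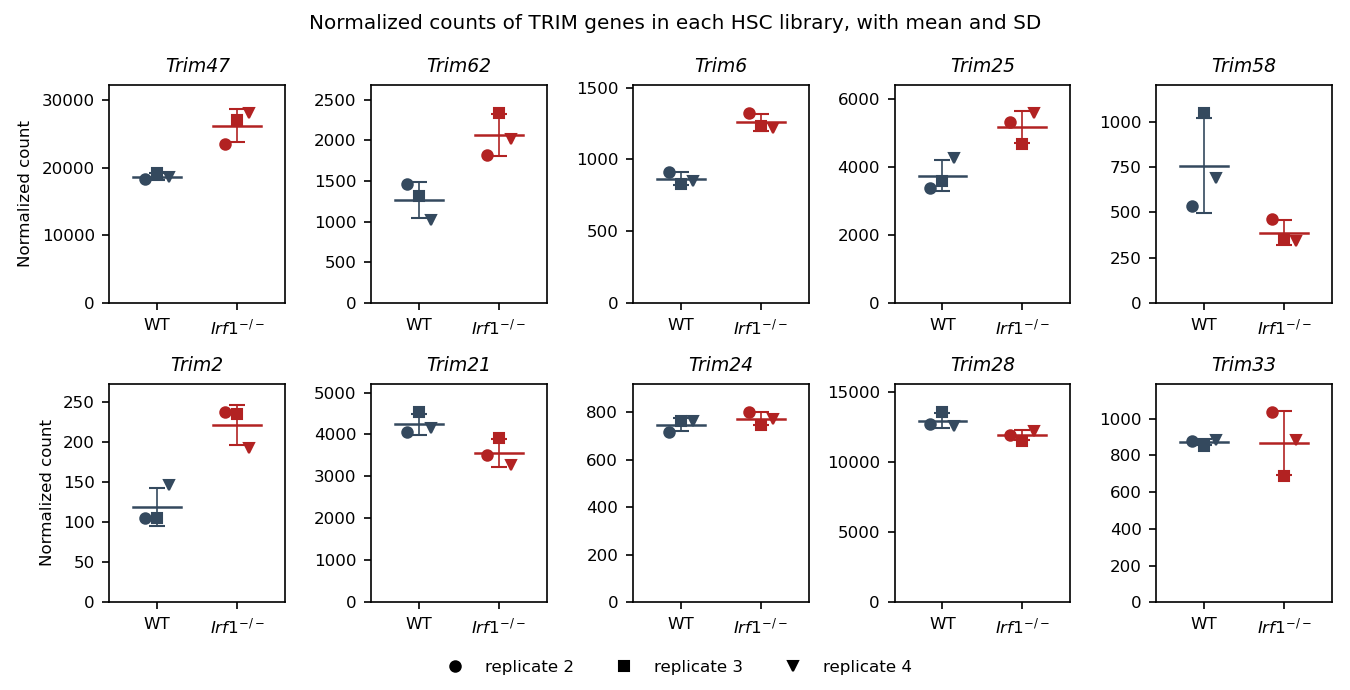
Normalized counts (y axis, from 0) of 10 TRIM genes in each of the 3 WT and 3 *Irf1-/-* libraries, with a shape for each replicate number and bars for the mean and SD. *Trim47*, *Trim62*, *Trim6*, *Trim25*, and *Trim2* were higher in all 3 *Irf1-/-* libraries, *Trim58*, *Trim21*, and *Trim28* were lower in all 3, and *Trim24* and *Trim33* overlapped.

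The chromatin-bound members carry a PHD finger and a bromodomain, with which some of them read histone tails. *Trim24* encodes a protein that binds nuclear receptors such as the retinoic acid receptors and is a ligase for p53. It had 799.5, 747, and 772 normalized counts in *Irf1-/-* libraries and 715, 762, and 764 in WT libraries. These values overlapped and all 6 lay within a narrow range. The log2 fold change was 0.05, with a 95% confidence interval of −0.23 to 0.33 (limma, adjusted *P* = 0.913), and it lay between 0.02 and 0.07 over all 16 other fits.

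*Trim28*, the corepressor KAP1 that KRAB zinc finger proteins bring to DNA, was the third highest member per kilobase. Its normalized counts were 11962, 11519.8, and 12252 in *Irf1-/-* HSCs and 12741, 13557, and 12590.0 in WT HSCs. All *Irf1-/-* libraries were below the WT libraries, but the gap was small, with a log2 fold change of −0.12 ± 0.08 (SE; limma, adjusted *P* = 0.523). *Trim33*, a ligase for SMAD4, had 1035, 689, and 881 normalized counts in *Irf1-/-* HSCs and 876, 853, and 884 in WT HSCs. WT libraries were nearly equal, whereas *Irf1-/-* replicate 2 was above and replicate 3 below all of them, and the log2 fold change was −0.02 (95% confidence interval, −0.35 to 0.30). *Trim66*, which lacks a RING finger and is mainly known from testis, was at 42.6, 24.2, and 52.9 in *Irf1-/-* libraries and 37.0, 15.8, and 14.0 in WT libraries, an overlap at a low level, with a log2 fold change of 0.88 ± 0.56 (SE; limma, adjusted *P* = 0.504). In all, 0 of the 4 chromatin members passed limma (against 1.73% of tested genes higher and 1.49% lower), 0 had an unadjusted *P* under 0.05 (against 16.5%), 0 passed with edgeR, and 0 passed with DESeq2, which gave an adjusted *P* for 3.

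The NHL repeat members bind RNA or cytoskeletal proteins through a propeller of repeats at their C terminus. *Trim2*, which adds ubiquitin to neurofilament light chain in neurons, had 238, 235, and 193 normalized counts in *Irf1-/-* libraries and 105, 105, and 146 in WT libraries. The genotypes did not overlap, and the *Irf1-/-* mean was 187% of WT. The log2 fold change of 0.91 ± 0.26 (SE; limma, adjusted *P* = 0.0765) missed the threshold, whereas DESeq2 on the recovered reads gave an adjusted *P* of 0.0104 and limma without WT replicate 4 gave 0.0356, in a range of 0.0104 to 0.231 over the 16 fits. *Trim3* had 1990.3, 1863, and 2216 in *Irf1-/-* HSCs and 1582, 1783, and 1547 in WT HSCs, and *Trim32*, a ligase that is lost in a limb-girdle muscular dystrophy, had 1808, 2189, and 2014 and 1747, 1639, and 1745. Both were higher in all 3 *Irf1-/-* libraries by a small amount, with log2 fold changes of 0.30 and 0.22 (limma, adjusted *P* = 0.171 and 0.318). *Trim71*, known from embryonic stem cells as a target of let-7, was barely counted, at 16.0, 6.91, and 4.15 in *Irf1-/-* libraries and 6.58, 3.38, and 28.0 in WT libraries. So 3 of the 4 NHL members were higher without overlap, against 10.6% of tested genes, and 0 passed limma, while 2 had an unadjusted *P* under 0.05 (against 16.5%), 0 passed with edgeR, and 1 passed with DESeq2, which gave an adjusted *P* for 3 of them and passed 1282 genes in the whole table, against 561 by limma.

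The erythroid members are *Trim58*, which in erythroblasts removes the motor protein dynein before the nucleus is expelled, and *Trim10*, which is needed for late erythroid maturation. *Trim58* had 466, 356, and 340.5 normalized counts in *Irf1-/-* HSCs and 534, 1049, and 693 in WT HSCs. The genotypes did not overlap, but WT replicate 2 came close to *Irf1-/-* replicate 2, and WT replicate 3 was far above the rest. The *Irf1-/-* mean was 51.1% of WT, with a log2 fold change of −0.93 ± 0.22 (SE; limma, adjusted *P* = 0.0387). Without WT replicate 3 the log2 fold change was −0.66 and the adjusted *P* in limma 0.173, and the call was also lost without *Irf1-/-* replicate 2 (0.0588), 3 (0.0968), or 4 (0.141), where the log2 fold changes were −1.06, −0.87, and −0.84. The adjusted *P* had a range of 6.23e-04 to 0.317 over the 16 fits by limma, edgeR, and DESeq2. *Trim10* was near the minimum, at 6.40, 26.8, and 11.4 in *Irf1-/-* libraries and 17.3, 38.3, and 32.3 in WT libraries. It overlapped between genotypes, and its log2 fold change of −1.08 ± 0.66 (SE; limma, adjusted *P* = 0.481) did not pass and was −0.63 without *Irf1-/-* replicate 2.

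Some transcripts of the erythroid and megakaryocyte lineages were lower beside *Trim58*. Of 10 erythroid markers, 6 were tested and 2 were lower in *Irf1-/-* HSCs (33.3%, against 1.49% of tested genes), *Klf1* (log2 fold change of −0.72; limma, adjusted *P* = 0.0361) and *Car1* (−3.51; adjusted *P* = 0.02). Only *Klf1* also passed with edgeR (adjusted *P* = 0.0437, against 0.0887 for *Car1*) and with DESeq2 (0.00187, against 0.198). *Car1* was uneven, at 836, 40.6, and 89.3 in *Irf1-/-* libraries and 1666, 1062, and 2638 in WT libraries. Its log2 fold change was −2.48 with edgeR and −2.47 with DESeq2. The 10 markers summed to 7963, 5581, and 6887 normalized counts in *Irf1-/-* libraries and 10873, 13598, and 10259 in WT libraries, with *Gata1* the most abundant, so that WT replicate 3 was the highest library here as it was for *Trim58*. The defining markers *Hba-a1*, *Hba-a2*, *Hbb-bs*, and *Hbb-bt*, which are near-identical copies in pairs, were at 0 in all 6 libraries. Of 6 megakaryocyte markers, *Pf4* and *Gp1bb* were lower (log2 fold changes of −1.11 and −0.90; limma, adjusted *P* = 0.00334 and 0.0032; 33.3%, against 1.49% of tested genes), 4 were lower without overlap (66.7%, against 9.27%), none was at 0, and the list, led by *Itga2b*, summed to 51516, 33794, and 46279.6 in *Irf1-/-* HSCs and 58848, 71525, and 56822 in WT HSCs. The part of these lineage transcripts in the *Trim58* result was not tested, and in bulk HSCs fewer cells with a transcript and less of it in each cell cannot be told apart.

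*Trim58* also lies near *Irf1*. Both genes are on chromosome 11, where 11 members of the family lie, and 49 tested genes stand between them in the gene order. *Trim7* and *Trim41* lie on the other side of *Irf1*, with 74 and 75 tested genes between. *Trim7*, a PRY-SPRY ligase, had 109.8, 166, and 190.0 normalized counts in *Irf1-/-* libraries and 93.0, 98.0, and 93.6 in WT libraries, with no overlap and a log2 fold change of 0.67 ± 0.30 (SE; limma, adjusted *P* = 0.281), whereas *Trim41* had a log2 fold change of −0.02. *Trim17* and *Trim11*, 56 and 58 tested genes from *Irf1* on the side of *Trim58*, had log2 fold changes of 0.14 and 0.11 (limma, adjusted *P* = 0.93 and 0.679). *Trim25* and *Trim47* are on the same chromosome but 546 and 950 tested genes away. Among the 200 tested genes nearest to *Irf1*, with 100 before and 100 after it, 14 were called (7%), against 1.91% of all tested genes. Because the allele was made in another mouse strain, the loss of IRF1 and sequence that is linked to the allele cannot be told apart for genes near *Irf1*.

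Of 15 listed interferon-linked members, 14 were tested, with 5 positive and 9 negative log2 fold changes and a median of −0.07, and those that passed limma, *Trim6* and *Trim25*, were both higher in *Irf1-/-* HSCs (14.3%, against 1.73% of tested genes). Summed over the list, normalized counts were 28984, 34997, and 30915 in *Irf1-/-* libraries and 31106, 32590.3, and 30498 in WT libraries, which overlapped. *Trim21*, the cytosolic antibody receptor, was counted at 3501, 3911, and 3267 in *Irf1-/-* libraries and 4049.6, 4530.3, and 4146 in WT libraries. It was lower in all 3 *Irf1-/-* libraries, with a log2 fold change of −0.26 ± 0.10 (SE; limma, adjusted *P* = 0.191). *Trim14*, an adaptor of the RNA sensing protein MAVS and the most abundant of these genes by normalized count, had 7684, 11503, and 8714 in *Irf1-/-* HSCs and 9891, 10752, and 8711 in WT HSCs, an overlap in which *Irf1-/-* replicate 3 was the highest library. *Trim56* overlapped as well, with a log2 fold change of 0.12 (95% confidence interval, −0.40 to 0.64). *Trim38* was under the minimum, with 2, 0, and 2 reads in *Irf1-/-* libraries and 0 in each WT library.

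Several interferon-induced genes outside the family were lower in the same libraries. Of 15 listed, 9 were lower in *Irf1-/-* HSCs by limma with an adjusted *P* under 0.05 (60%, against 1.49% of tested genes) and 0 were higher (against 1.73%), with a median log2 fold change of −0.57. *Gbp2* had 1653, 1878, and 1847 normalized counts in *Irf1-/-* libraries and 4379, 4209, and 4187 in WT libraries, with no overlap. Its log2 fold change was −1.25 (limma, adjusted *P* = 3.01e-06), and the largest fall on the list was that of *Ifit3* (−1.89). No difference between this list and the interferon-linked TRIM genes was tested. Among the genes of the RNA sensing pathway on which TRIM proteins act, all 11 were tested and 0 passed limma (against 1.73% of tested genes higher and 1.49% lower), 1 had an unadjusted *P* under 0.05 (against 16.5%), and 0 passed with edgeR or DESeq2. RIG-I itself, the substrate of TRIM25 (*Ddx58*), had a log2 fold change of −0.07 (95% confidence interval, −0.28 to 0.13).

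Within this group, 10 members stand together on chromosome 7, in the order *Trim6*, *Trim34a*, *Trim5*, *Trim12a*, *Trim34b*, *Trim12c*, *Trim30b*, *Trim30c*, *Trim30a*, and *Trim30d*. The rodent copies of *Trim5*, *Trim12*, *Trim30*, and *Trim34* are alike in sequence, so that reads may be split or lost between them, and their values are uncertain for this reason. Some neighbors differed in direction. *Trim30b* was higher in all 3 *Irf1-/-* libraries (532, 441, and 628 against 397, 416, and 374 in WT libraries) and the next gene, *Trim30c*, was lower in all 3 (392, 412, and 362 against 541, 425, and 523). Neither passed limma, with log2 fold changes of 0.42 and −0.34 (adjusted *P* = 0.246 and 0.339). *Trim30a*, which restrains NF-κB signaling and was the most abundant of the cluster by normalized count, had 3723, 5057, and 4278 in *Irf1-/-* HSCs and 4540.0, 4481, and 4277 in WT HSCs, and its log2 fold change of −0.04 turned to 0.00165 with quantile normalization. Apart from these and *Trim6*, the cluster overlapped between genotypes, with log2 fold changes from −0.37 (*Trim34b*) to 0.19 (*Trim12c*). Summed over the 10 genes, normalized counts were 12295, 14671, and 13025 in *Irf1-/-* libraries and 13517, 13534, and 13152 in WT libraries, which overlapped.

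**Figure D3:**
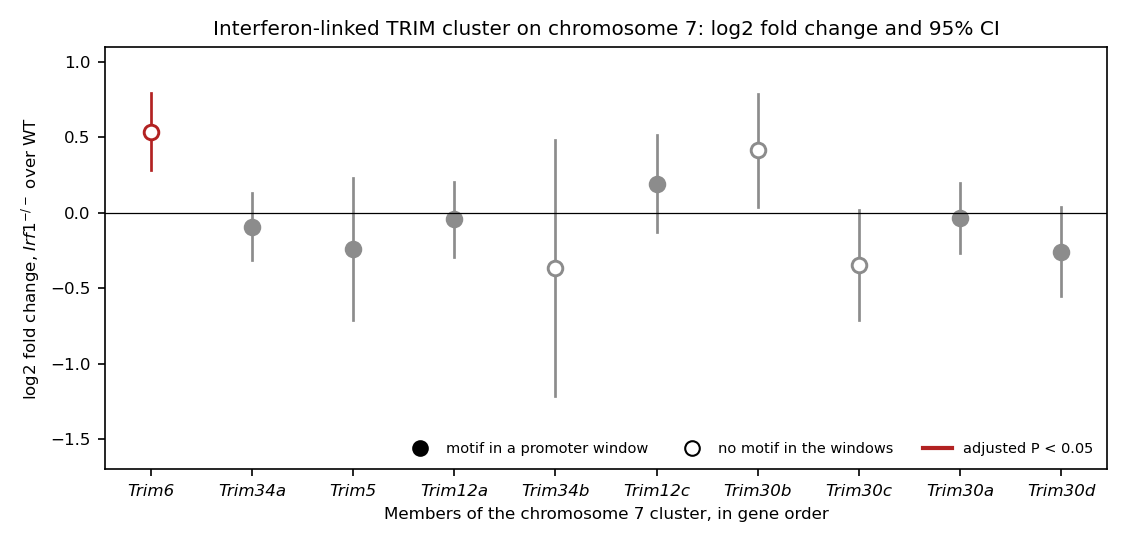
Log2 fold change (*Irf1-/-* over WT, y axis) of the 10 members of the chromosome 7 cluster with its 95% confidence interval from limma, in gene order along the x axis. Filled points mark the 6 members with the interferon motif in a promoter window and open points the 4 without, and *Trim6*, in red, is the 1 member with an adjusted *P* under 0.05.

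IRF proteins bind the interferon-stimulated response element, whose core was searched here as GAAA, any 2 bases, GAAA on both strands (GAAANNGAAA). RefSeq promoter windows of build GRCm38.p6, each with 250 bases before and 50 after a gene's start, were given for 45 of the 58 TRIM members in 58 windows. The core was found in 9 of the 45 members (20%), against 3.99% of all 27025 genes with a window and 3.44% of all 32851 windows. Of the 9 members, 6 belong to the chromosome 7 cluster, in which 10 members had a window. The others are *Trim21*, *Trim26*, and *Trim2*, the last in 1 of its 5 windows. The cluster holds copies that are alike in sequence, so its matches are not independent, although the share of 20% counts each of them. The members that passed limma, *Trim47*, *Trim62*, *Trim6*, *Trim25*, and *Trim58*, had no match in their windows. Of the 9 with a match 0 passed, where 1.73% of tested genes passed as higher and 1.49% as lower. At these shares, 0 of 9 says little about members with a match. The 9 had a median log2 fold change of −0.04, between −0.26 and 0.91, and the 36 members with a window and no match had a median of 0.20. The 36 include members with few reads and large fold changes in both directions, such as *Trim42* (2.12) and *Trim10* (−1.08). No difference between these medians was tested.

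IRF1 belongs to the protein family that binds the core, and the stretches around the core are shown for 6 of these members. All 6 had negative log2 fold changes, whereas the members with a match that are not shown had positive ones. These are *Trim12c* (0.19), *Trim26* (0.14), and *Trim2* (0.91). Each stretch is read 5′ to 3′ on the strand of the gene with every match in capitals. *Trim21* (chr7:102565439-102565484, minus strand) holds the core in 2 overlapping matches, and the other stretches hold it once, on the opposite strand. They lie at chr7:104244452-104244491 (*Trim34a*, plus strand), chr7:104288131-104288170 (*Trim5*, minus strand), chr7:104315461-104315500 (*Trim12a*, minus strand), chr7:104446099-104446138 (*Trim30a*, minus strand), and chr7:104507866-104507905 (*Trim30d*, minus strand), all in GRCm38.p6 from RefSeq.
Trim21: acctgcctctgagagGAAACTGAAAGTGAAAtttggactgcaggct
Trim34a: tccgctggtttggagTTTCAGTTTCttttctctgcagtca
Trim5: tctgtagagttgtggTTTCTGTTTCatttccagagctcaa
Trim12a: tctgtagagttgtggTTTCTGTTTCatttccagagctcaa
Trim30a: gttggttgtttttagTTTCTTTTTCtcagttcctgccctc
Trim30d: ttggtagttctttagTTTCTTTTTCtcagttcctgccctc

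The stretches of *Trim5* and *Trim12a* are the same letter for letter. *Trim30a* also has a match in its other window (chr7:104465205-104465244), where the stretch is the same as that of *Trim30d*. *Trim5* had 358, 669, and 442 normalized counts in *Irf1-/-* libraries and 495, 687, and 512 in WT libraries, and *Trim12a* had 1435, 1797, and 1688 and 1812, 1625, and 1620.1. Both overlapped between genotypes, with log2 fold changes of −0.24 and −0.04 (limma, adjusted *P* = 0.674 and 0.915). With 1 library left out, the log2 fold change of *Trim5* ran from −0.49 to −0.04. *Trim26*, a further member with a match, had a log2 fold change of 0.14 (95% confidence interval, −0.08 to 0.35). A match describes only the letters of the window, and no match says only that these letters are not in it.

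Members that attach to microtubules through a COS box were mostly low in HSCs, and 6 of 8 were tested. The most abundant, *Trim46*, which bundles microtubules in the axon, had 825, 766, and 614 normalized counts in *Irf1-/-* HSCs and 555, 618, and 579.9 in WT HSCs, with a log2 fold change of 0.32 ± 0.15 (SE; limma, adjusted *P* = 0.317). Its WT replicate 3 lay just above *Irf1-/-* replicate 4, so the genotypes overlapped. *Trim42* had the largest positive log2 fold change of the family but rested on few reads, 29, 14, and 11 in *Irf1-/-* libraries and 0, 5, and 8 in WT libraries. Its log2 fold change of 2.12 ± 0.99 (SE; limma, adjusted *P* = 0.307) did not pass, and it was 1.12 without WT replicate 2 and 1.27 with a pseudocount of 5. *Trim67* (0.82), *Trim36* (0.61), *Trim9* (0.25), and the muscle ligase *Trim55* (−0.67) overlapped between genotypes, and of these *Trim36* and *Trim9* turned negative without WT replicate 3, *Trim67* went to 0.08 without WT replicate 2, and *Trim55* went to −0.11 without WT replicate 4. In this class 0 of 6 passed limma (against 1.73% of tested genes higher and 1.49% lower), 0 had an unadjusted *P* under 0.05 (against 16.5%), 0 passed with edgeR, and 0 passed with DESeq2, which gave an adjusted *P* for 4.

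Members without a RING finger and those with other C-terminal domains included some of the most abundant transcripts. *Trim44* had 10686, 10791, and 10802 normalized counts in *Irf1-/-* HSCs and 12302, 12079.8, and 9666 in WT HSCs, and *Trim16*, which takes part in autophagy, had 659, 649.8, and 545 and 649, 461, and 564. Both overlapped, with log2 fold changes of −0.07 and 0.16 (limma, adjusted *P* = 0.816 and 0.728). *Trim37*, a MATH domain ligase for histone H2A, had a log2 fold change of −0.14 (95% confidence interval, −0.35 to 0.08), and *Trim23*, which carries an ARF GTPase domain, one of −0.03 (−0.27 to 0.22). *Trim59*, which is anchored in membranes, was counted at 2965, 2878, and 2104 in *Irf1-/-* libraries and 4105, 3650.2, and 2854 in WT libraries. The genotypes overlapped only through *Irf1-/-* replicates 2 and 3 and WT replicate 4. The log2 fold change of −0.42 ± 0.15 (SE; limma, adjusted *P* = 0.158) did not pass. Without WT replicate 4 it was −0.56, with an adjusted *P* of 0.0335 in limma. Without *Irf1-/-* replicate 4 it was −0.26, with an adjusted *P* of 0.55 in limma. The adjusted *P* had a range of 0.0161 to 0.55 over the 16 fits. *Trim13*, a membrane ligase of the endoplasmic reticulum, and *Trim45*, which was higher in all 3 *Irf1-/-* libraries, had log2 fold changes of 0.18 and 0.33 (limma, adjusted *P* = 0.536 and 0.563).

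*Trim8*, which ends without a further domain and acts in cytokine signaling, was the second highest member per kilobase. It had 10897, 11752, and 11709.8 normalized counts in *Irf1-/-* libraries and 10262, 10487, and 10485 in WT libraries. Every *Irf1-/-* library was above every WT library, by a log2 fold change of only 0.14 ± 0.08 (SE; limma, adjusted *P* = 0.451). Among the PRY-SPRY members, *Trim27* had 10133, 12031, and 10584 in *Irf1-/-* HSCs and 11934, 13506, and 10954 in WT HSCs, and *Trim35* had 10542, 11767, and 11575 and 10375, 10984, and 9439. Both overlapped, with log2 fold changes of −0.15 and 0.14 (95% confidence intervals, −0.36 to 0.06 and −0.05 to 0.33). *Trim68* was higher in all 3 *Irf1-/-* libraries (1437, 1503, and 1679 against 1125, 1293, and 1383 in WT libraries), with a log2 fold change of 0.28 ± 0.12 (SE; limma, adjusted *P* = 0.251). *Trim39*, *Trim11*, and *Trim65* overlapped, with log2 fold changes of 0.05, 0.11, and 0.23. Over the PRY-SPRY class, 33 of 38 listed genes were tested, with 18 positive and 15 negative log2 fold changes and a median of 0.11. Members listed under the COS box or without a RING finger were not counted in the PRY-SPRY class, whether or not they carry this domain. This class held all 5 members that passed limma, 4 higher (12.1%, against 1.73% of tested genes) and 1 lower (3.03%, against 1.49%), and 7 of its members were higher and 3 lower without overlap (against 10.6% and 9.27% of tested genes).

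Many of the largest fold changes belonged to members with few reads, and edgeR moved these both ways. Its log2 fold changes were nearer to 0 for *Trim50* (0.89), *Trim67* (0.44), and *Trim80* (0.18, against 0.72 in limma), and farther from 0 for *Trim43b* (−1.01), *Trim55* (−0.85), and *Trim71* (−0.48, against −0.16 in limma). Next to *Trim42*, the largest positive log2 fold changes were those of *Trim50* (1.26), *Trim2*, *Trim66*, and *Trim67*, and the largest negative ones those of *Trim10*, *Trim58*, *Trim43b* (−0.92), *Trim55*, and *Trim43a* (−0.42). The last of these was close to *Trim59* (−0.424 against −0.417). With 1 library left out, the log2 fold change of *Trim43a* ran from −0.77 to −0.09. *Trim50* was counted at 25.6, 15.6, and 34.3 in *Irf1-/-* libraries and 1.65, 18.0, and 21.5 in WT libraries, where WT replicate 2 stood apart at a low value, and without it the log2 fold change was 0.27. *Trim43b*, a copy of the preimplantation gene *Trim43a*, was at 19.2, 10.4, and 12.5 in *Irf1-/-* libraries and 32.1, 15.8, and 36.6 in WT libraries, and reads of such copies may be split. Both overlapped between genotypes and had adjusted *P* of 0.519 and 0.521 in limma. Just above the minimum of 10 were *Trim71* with a mean of 10.8, *Trim42* with 11.4, and *Trim15* with 11.6, and just below it were *Trim69* with 9.47, *Trim63* with 9.42, and *Trim43c* with 7.89. Of the 10 symbols under the minimum, *Trim52* had 0 reads in all 6 libraries.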

How the data were processed

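Bulk RNA-seq of sorted HSCs was analysed from 3 WT and 3 *Irf1-/-* libraries, assigned by their labels, with replicate numbers 2 to 4 as in the labels. The submitters' processing notes name Trim Galore, HISAT2, and build mm39; versions, annotation, and the strand setting are not given in the sources used here. The authors counted reads with Htseq-count and deposited a signal, the count of each gene divided by 1 size factor per library, for 26264 genes. Dividing by the smallest value of a library gave whole numbers for 100% of its values within 0.01 read, so reads were recovered. Reads on genes numbered 43138521 to 59658080 per library. Reads are PCR copies without molecular identifiers. Libraries of a genotype differed by more than sampling noise (chi-square per gene of 15.0 to 27.6).

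Genotypes were compared with limma 3.58.1 (trend) in R 4.3.3 on log2(normalized count + 1), over the 17404 genes with a mean of at least 10, with Benjamini-Hochberg adjustment over all of them. edgeR 4.0.16 and DESeq2 1.42.0 were run on recovered reads as alternatives, which called 576 and 1282 genes with an adjusted *P* under 0.05, beside 561 by limma. DESeq2 gave no adjusted *P* for 14 of the 58 members. Other alternatives were pseudocounts of 0.5 and 5, no minimum or one of 50, no trend, quantile normalization, other thresholds, median centring, omission of each library, and a block for the replicate number. Scripts were tested on simulated data. Exon lengths came from GENCODE vM1 by symbol (84.2% of tested genes), and gene order from RefSeq GRCm38.p6. Figures were drawn with matplotlib 3.10.9.

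Named genes are *Trim24*, *Trim28*, *Trim33*, *Trim66*, members with an adjusted *P* under 0.05, the 5 largest positive and negative fold changes, *Trim58*, *Trim2*, *Trim62*, *Trim10*, those next to the minimum, the 5 highest per length, and genes of lists by role, pathway, and cell type. The members and lists were chosen with earlier results of these data known, and the 100 genes on each side of *Irf1* after values were seen.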

Additional observations from a re-analysis of the deposited data

How the results depend on the processing

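In 44 of the 58 TRIM members the log2 fold change kept its sign in every other fit that tested it, and in the other 14, none of which passed limma, it turned in 22 values. Of these, 21 came from leaving out 1 library and 1 from quantile normalization (*Trim30a*, 0.00165). With 1 library left out, log2 fold changes ran −0.0335 to 1.23 for *Trim36*, −0.11 to 1.54 for *Trim80*, −0.0843 to 0.55 for *Trim9*, −0.25 to 0.0385 for *Trim14*, −0.0934 to 1.23 for *Trim31*, −0.0652 to 0.30 for *Trim56*, −0.11 to 0.0491 for *Trim12a*, −0.50 to 0.0882 for *Trim75*, −0.15 to 0.0699 for *Trim30a*, −0.14 to 0.47 for *Trim17*, −0.11 to 0.0517 for *Trim23*, −0.74 to 0.62 for *Trim71*, −0.16 to 0.13 for *Trim33*, and −0.16 to 0.0879 for *Trim41*.

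The members with an adjusted *P* under 0.05 numbered 5 in limma and 1 to 7 with a library left out, where the genes that passed in the whole table numbered 230 to 992 in place of 561. Without the intensity trend limma found 0, so 0 were called higher and 0 lower, with 11 at an unadjusted *P* under 0.05 and 40 genes passing in the whole table. Members called higher numbered 2 with DESeq2, 2 at an adjusted *P* under 0.1, 4 without a fold change threshold, and 0 to 1 with a library left out, and members called lower 0 to 1. Leaving out a library can only keep or raise the count of genes without overlap, which went from 17 members to between 20 and 27, while the share of all tested genes went from 19.9% to between 25.9% and 38.0%. The median log2 fold change was 0.11 with median centring and 0.0147 (without WT replicate 3) to 0.14 with a library left out. With the replicate block, 6 members passed, with *Trim59* added (adjusted *P* = 0.0161, limma), no other call among members changed, and 1075 genes passed in the whole table in place of 561. Same-numbered libraries correlated at −0.09 (replicate 2), 0.25 (3), and 0.15 (4) in their deviations from the genotype means, and not every library correlated best with its own number. Where no value above shows a cause, the cause was not tested. At this depth, members near the minimum rest on few reads, 64 over all libraries for *Trim71* and 133 for *Trim10*.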

Other observations

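Genes that work with TRIM proteins were listed by pathway. Of 13 genes for ubiquitin and the E1 and E2 enzymes that charge it, 0 passed limma (1 with an unadjusted *P* under 0.05, and 0 with edgeR or DESeq2). Of all tested genes, 1.73% passed limma as higher, 1.49% passed as lower, and 16.5% had an unadjusted *P* under 0.05. All 3 *Irf1-/-* libraries were below the WT libraries in 4 of them (30.8%, against 9.27% of tested genes) and above in 0 (against 10.6%). *Ube2d3*, an E2 that many RING ligases use, had 16246, 18998, and 17520.0 normalized counts in *Irf1-/-* HSCs and 19406, 22247, and 19040.4 in WT HSCs, with a log2 fold change of −0.20 ± 0.09 (SE; limma, adjusted *P* = 0.305). *Ube2v2*, a cofactor of the E2 for K63-linked chains, had 972, 1091, and 1062 and 1373, 1357, and 1122. Its log2 fold change was −0.30 (limma, adjusted *P* = 0.245).

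Among 8 partners of TRIM28 in gene repression, 0 passed limma (1 with an unadjusted *P* under 0.05, against 16.5% of tested genes, 0 with edgeR, and 1 with DESeq2). *Cbx5*, which encodes the heterochromatin protein HP1α, had 6418, 5886, and 5388 normalized counts in *Irf1-/-* libraries and 7798, 7836, and 6589 in WT libraries. It was lower in all 3 *Irf1-/-* libraries, as *Trim28* was, with a log2 fold change of −0.33 ± 0.10 (SE; limma, adjusted *P* = 0.0966). Among 8 partners of TRIM24 and TRIM33, 0 passed limma (2 with an unadjusted *P* under 0.05, against 16.5% of tested genes, and 0 with edgeR or DESeq2). *Rara*, the retinoic acid receptor that TRIM24 binds, had 547, 505, and 539.8 in *Irf1-/-* HSCs and 417, 369, and 401 in WT HSCs, with no overlap and a log2 fold change of 0.42 ± 0.16 (SE; limma, adjusted *P* = 0.183).

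Of 7 TRIM family genes with other symbols, 6 were tested and 0 passed limma (0 with an unadjusted *P* under 0.05, 0 with edgeR, and 0 with DESeq2, which gave an adjusted *P* for 2). *Pml*, which forms nuclear bodies and is the most abundant of them, had 16370.0, 18014, and 16020.0 normalized counts in *Irf1-/-* HSCs and 16132, 15704, and 13813 in WT HSCs. These values overlapped, and the log2 fold change was 0.14 (95% confidence interval, −0.05 to 0.34).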
